A study of Gasterosteus aculeatus with 34 samples.

Results

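The males that met a live fish in their last trial, whatever that fish was, were pooled and set against males shown empty flasks, in each of 2 forebrain regions. The stimulated males numbered 13. Of these, 4 had a courtship opportunity with a gravid female, 5 had a territorial challenge from a rival male in breeding colour, and 4 had the tradeoff, in which female and rival were present together. The control males numbered 4, and both of their flasks held no fish. These are all 17 males of the study, and each gave a telencephalon and a diencephalon library, so that the comparison used 34 of 34 libraries.

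All were laboratory-reared threespine sticklebacks (Gasterosteus aculeatus) whose wild-caught parents were of the white ecotype; the labels name no drug and no genetic change. The sources used here give no age. Each male lived alone from at least a day before testing and went through 8 trials, on separate days, that included every treatment. A control male had therefore also met females and rivals on earlier days, and the grouping rests on the last trial alone. The brain was taken 60 minutes after that trial, and a stimulus fish stayed confined to its flask. The study set mates, rivals and their combination against each other. The pooled comparison sets the stimulated males as a group against the controls, and a difference in it need not be shared by all stimuli.

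The teleost telencephalon holds pallial and subpallial areas that take part in learning, arousal and the weighing of social cues. The diencephalon holds the thalamus, the habenula and the hypothalamus, whose neuroendocrine cells control the pituitary and with it reproduction and stress hormones. Both belong to a network of forebrain areas known to be active in courtship and aggression in fish. Firing neurons switch on immediate early genes within minutes, and slower transcriptional programmes follow.

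Gene models received 24505411 to 36656215 counts in the stimulated and 22802875 to 30799674 in the control telencephalon libraries. The diencephalon libraries had 16522465 to 34384860 counts in stimulated and 17676221 to 25149326 in control males. Levels are CPM, counts scaled to the library size, on a scale common to all libraries. Genes carry their identifiers here, because no name could be matched to any of the 22295; gene functions, the immediate early genes and the markers that define each region could therefore not be looked up. Of 18 library measures tested (depth, detected gene models, summary rows of the counting, chrY share and others), 0 differed between stimulated and control males at adjusted p under 0.05. The lowest was the number of detected gene models in the telencephalon, at 19680 ± 66.8 in stimulated and 19790 ± 155 in control males (SD, n = 13 and 4; exact permutation test, two-sided, p = 0.0635, adjusted p = 0.95).

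Between the regions, control male 304 lay nearer to the other region than any other male did, with each of its libraries. Each library was placed on an axis between the mean profiles of the regions, at 0 for the mean diencephalon and 1 for the mean telencephalon, the male it came from being left out of the means. The telencephalon libraries of stimulated males lay at 0.773 at the lowest, 1.06 at the median and 1.145 at the highest, and those of the controls at 1.097 (male 303), 0.472 (male 304), 1.14 (male 307) and 0.913 (male 308). The telencephalon library of male 304 was below every other, with the other 3 controls inside the range of the stimulated males. In the diencephalon the stimulated males lay between -0.0447 and 0.057 and control males 303, 304, 307 and 308 at -0.00216, 0.137, -0.000978 and -0.0662. Male 304 was there the library nearest to the telencephalon, and male 308 the farthest from it. The difference in mean position was within the spread between males in the telencephalon (0.11; exact permutation test, two-sided, p = 0.292) and in the diencephalon (-0.0141; exact permutation test, p = 0.588). Without male 304 both differences turned sign. They were -0.0344 in the telencephalon (exact permutation test, two-sided, p = 0.688) and 0.0258 in the diencephalon (exact permutation test, two-sided, p = 0.191). Whether male 304's libraries hold tissue of the other region was not tested, and results that rest on this male are given with and without it.

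**Figure D1:**
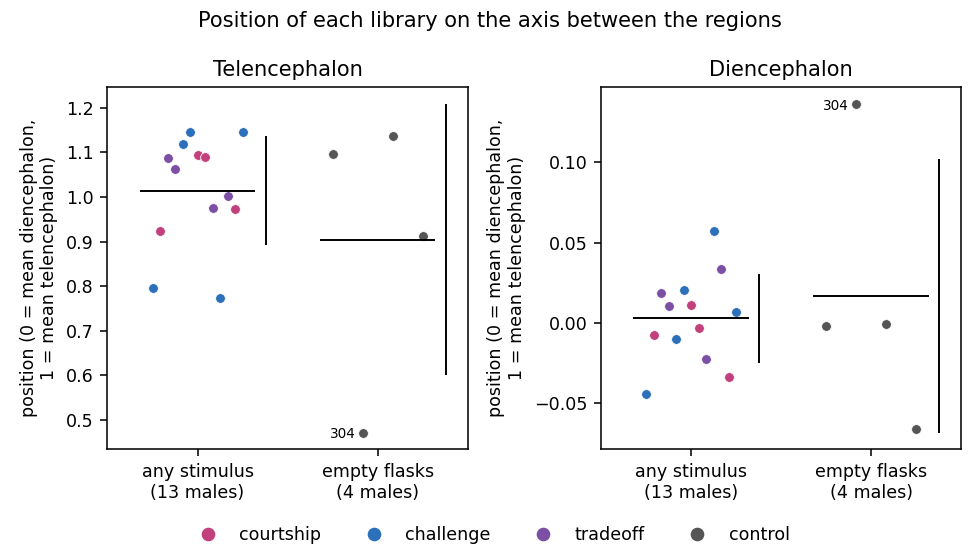
Position of each library between the mean diencephalon (0) and the mean telencephalon (1), by group, with the telencephalon left and the diencephalon right; points are males, horizontal lines group means and vertical bars 1 SD around the mean. Control male 304 lies at 0.472 in the telencephalon and 0.137 in the diencephalon, outside the range of the stimulated males in both. Control male 308, at -0.0662, is also outside that range in the diencephalon.

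In the telencephalon no gene passed the test for a difference between stimulated and control males. Of 18277 genes tested, 0 (0%) had an adjusted p under 0.05 in edgeR's quasi-likelihood test with Benjamini-Hochberg adjustment, and the lowest adjusted p was 0.139. Before adjustment 424 genes (2.32%) had a p under 0.05, 190 higher and 234 lower in stimulated males. Uniform p-values, with no difference in any gene, would on average put a share of 0.05 there, so that 2.32% is below that level. The same holds for the unadjusted shares of the later comparisons. DESeq2 called 1 gene of the 18163 to which it gave an adjusted p, and limma voom called 0. To ENSGACG00000013566, described below, DESeq2 gave no p. The median log2 fold over all genes was 0.00 (-0.0019), and 95% confidence intervals lay within 2-fold of no change for 93.4% of the 16437 genes that averaged 1 CPM or more and within 1.5-fold for 79.5% of them. Replicates are separate males, so that p-values and intervals measure the spread between males. In such bulk tissue, fewer cells of a type and less RNA per cell cannot be told apart.

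The genes with the lowest p among those higher in the stimulated telencephalon showed small shifts. ENSGACG00000004416 had 16.9 CPM in the lowest, 18.3 in the median and 24.6 in the highest stimulated male, against 16.4, 11.5, 16.4 and 12.2 CPM in control males 303, 304, 307 and 308. All 13 stimulated males lay above all 4 controls, and the gap between the nearest of them was under 1 CPM. Its log2 fold was 0.41 ± 0.10 (SE; edgeR, adjusted p = 0.921). Of the 3 stimuli, the challenge gave the highest mean, 20.4 ± 2.75 CPM (SD), while courtship gave 17.6 ± 0.588 CPM and the tradeoff 18.1 ± 0.749 CPM. ENSGACG00000006374 had 18.7, 22.3 and 26.4 CPM at the lowest, median and highest of the stimulated males, against 18.5, 17.7, 16.0 and 19.0 CPM in the controls, and 12 of the 13 stimulated males lay above the highest control. Its log2 fold was 0.32 ± 0.08 (edgeR, adjusted p = 1).

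The lower genes with the lowest p were of another kind, near 0 in most males and high in a few controls. ENSGACG00000007902 had 0.156, 0.505 and 1.09 CPM at the lowest, median and highest of the stimulated males, against 0.738, 11.9, 0.388 and 7.66 CPM in control males 303, 304, 307 and 308. Males 304 and 308 were far above the rest, while the other 2 controls lay within the stimulated range. Its log2 fold was -3.33 ± 0.55 (edgeR, adjusted p = 0.139) and -2.51 without male 304. Without males 298, 304, 308 and 321 it was -0.06, so that the fold all but went with the 2 high controls and stimulated males 298 and 321 left out. In the diencephalon the gene was much more abundant, 20.2 CPM at the median of the stimulated males. Over the alternative settings its adjusted p ran between 7.72e-05 and 0.9999, and 4 settings put it past 0.05. ENSGACG00000013566 had 0.212, 0.583 and 1.43 CPM at the lowest, median and highest of the stimulated males, against 0.554, 82.5, 0.424 and 2.59 CPM in the controls. Most of its fold came from male 304: the log2 fold was -4.92 ± 0.83 with that male and -0.75 without it (edgeR, adjusted p = 0.139 with it). With the region position of each library as a covariate it was -1.20. That position is computed from the expression values of the same library, this gene included, and male 304 is its extreme. A smaller fold was therefore built in, and the cause was not tested.

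Male 304 was the highest of the 17 telencephalon libraries in 125 of the 234 lower genes (53.4%), against 9.58% of all genes tested, and the lowest in 76 of the 190 higher genes (40%), against 10.1%. The lists were picked for controls that differ, so that every control is extreme in them more often than over all genes. Control males 303, 307 and 308 were the highest in 15.8%, 11.1% and 13.7% of the lower genes, against 5.85%, 5.80% and 3.99% of all genes tested. They were the lowest in 16.3%, 13.2% and 15.3% of the higher genes, against 6.35%, 4.63% and 4.83% of all genes tested. Genes typical of the diencephalon were many among the lower ones. By the levels in stimulated males, 102 of the 234 (43.6%) were over 2-fold higher in the diencephalon than in the telencephalon, against 8.53% of the genes tested. Those levels also entered the choice of the list. In the lower list computed without male 304 the share was 15.1%, against 8.59%, and so not particular to the lower genes. Among the higher genes the share was 1.05% with male 304 and 16.5% in the list computed without it. Without that male 0 genes were called and 324 had an unadjusted p under 0.05, 176 higher and 148 lower, of which 143 were shared with the list of all males (44.1% of the list without the male, 33.7% of the list with it).

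Complete separation of the groups was rare in the telencephalon. In 2 genes (0.0109% of those tested) all stimulated males lay above all controls, and in 3 (0.0164%) all lay below; they are named here after their values were seen. Besides ENSGACG00000004416, the higher one was ENSGACG00000013642, with 9.10 to 12.4 CPM in stimulated and 8.35 to 9.02 CPM in control males. The lower ones were ENSGACG00000006144, with 13.9 to 18.8 CPM in stimulated and 19.1 to 19.7 CPM in control males, ENSGACG00000007382, with 10.5 to 14.9 against 14.95 to 16.3 CPM, and ENSGACG00000003190, with 0.0418 to 0.397 against 0.459 to 0.783 CPM. ENSGACG00000003190 had 1 to 23 counts in a telencephalon library, so that its values carry a large counting error. In the diencephalon none of the 5 separated the groups.

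In the diencephalon likewise 0 of 18399 genes (0%) passed, with a lowest adjusted p of 0.9999 in edgeR, and DESeq2 and limma voom called 0. To ENSGACG00000003160, described below, DESeq2 gave no p. At an unadjusted p under 0.05 there were 399 genes (2.17%), 200 higher and 199 lower in stimulated males. The intervals were narrower than in the telencephalon: those of 96.5% of the 17014 genes that averaged 1 CPM or more lay within 2-fold of no change and those of 87.3% within 1.5-fold. The median standard error of a log2 fold was 0.11 (0.111) in the telencephalon and 0.10 (0.096) in the diencephalon.

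ENSGACG00000001332 had 6.26, 9.21 and 12.9 CPM at the lowest, median and highest of the stimulated diencephalon libraries, against 6.91, 5.38, 5.23 and 6.03 CPM in control males 303, 304, 307 and 308. Of the stimulated males 11 lay above the highest control, and the means after courtship, challenge and tradeoff were 8.61, 10.1 and 8.41 CPM. Its log2 fold was 0.44 ± 0.27 in the telencephalon, with 5 of the 13 stimulated males above the highest control, and 0.64 ± 0.16 in the diencephalon (edgeR, adjusted p = 0.9999 in the diencephalon). ENSGACG00000005471 had 10.9, 12.1 and 14.7 CPM in stimulated males, against 11.2, 9.83, 9.84 and 9.45 CPM in the controls. The stimulated males above the highest control numbered 12, and its log2 fold was -0.04 ± 0.13 in the telencephalon and 0.32 ± 0.08 in the diencephalon (edgeR, adjusted p = 0.9999 in the diencephalon).

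Among the lower genes of the diencephalon, ENSGACG00000003160 had 1.28, 2.51 and 3.76 CPM at the lowest, median and highest of the stimulated males, against 2.60, 39.5, 3.37 and 1.41 CPM in the controls. Male 304 was far above all other males, whose groups overlapped. In the telencephalon this gene was abundant in every male, 216 ± 30.2 CPM in stimulated and 197 ± 62.2 CPM in control males (SD, n = 13 and 4). Its log2 fold in the diencephalon was -2.25 ± 0.53 with male 304 (edgeR, adjusted p = 0.9999) and 0.0019 without it. With the region position as a covariate it was -0.71, where again a smaller fold was built in. ENSGACG00000010319 had 0.617, 1.05 and 1.51 CPM in stimulated males, against 1.92, 2.73, 1.24 and 1.63 CPM in the controls, and 12 of the 13 stimulated males lay below the lowest control. Its log2 fold was -0.89 ± 0.23, and -0.65 without male 304 (edgeR, adjusted p = 0.9999 with it).

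In the diencephalon male 304 was the highest library in 69 of the 199 lower genes (34.7%, against 7.27% of the genes tested). Control males 303, 307 and 308 were the highest in 10.05%, 27.6% and 22.1% of this list, which was picked for high controls. Over all genes tested their shares were 5.08%, 7.45% and 5.83%. Among the 200 higher genes control males 303, 304, 307 and 308 were the lowest in 12.5%, 18.5%, 31% and 18%. Over all genes tested these shares were 5.33%, 4.26%, 7.67% and 5.84%. Of the 199 lower genes, 57 (28.6%) were over 2-fold higher in the telencephalon, against 4.28% of the genes tested, by the levels in stimulated males. In the list computed without male 304 the share was 4.29%, against 4.30%. Without it, 525 genes had an unadjusted p under 0.05, 313 higher and 212 lower, and 0 were called.

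All stimulated males lay above all controls in 4 genes of the diencephalon (0.0217% of those tested) and below in 3 (0.0163%). Both shares were again below the probability of 0.00042 that random labels give. The higher ones, named after their values were seen, were ENSGACG00000015211, with 14.9 to 22.7 CPM in stimulated and 12 to 14.6 CPM in control males, ENSGACG00000015292, with 8.461 to 11.7 against 8.09 to 8.460 CPM, ENSGACG00000008202, with 2.603 to 4.68 against 2.28 to 2.599 CPM, and ENSGACG00000008868, with 0.662 to 1.92 against 0.468 to 0.597 CPM. In ENSGACG00000015292 and ENSGACG00000008202 the groups all but touched. The lower ones were ENSGACG00000002649, with 3.33 to 5.90 CPM in stimulated and 5.93 to 6.35 CPM in control males, ENSGACG00000017959, with 0.289 to 0.994 against 1.04 to 1.94 CPM, and ENSGACG00000019599, with 182 to 219 against 220 to 231 CPM. ENSGACG00000017959 had the lowest p of all genes in the diencephalon (log2 fold -1.17 ± 0.26; edgeR, adjusted p = 0.9999), from 6 to 50 counts a library. No gene separated the groups in both regions.

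**Figure D2:**
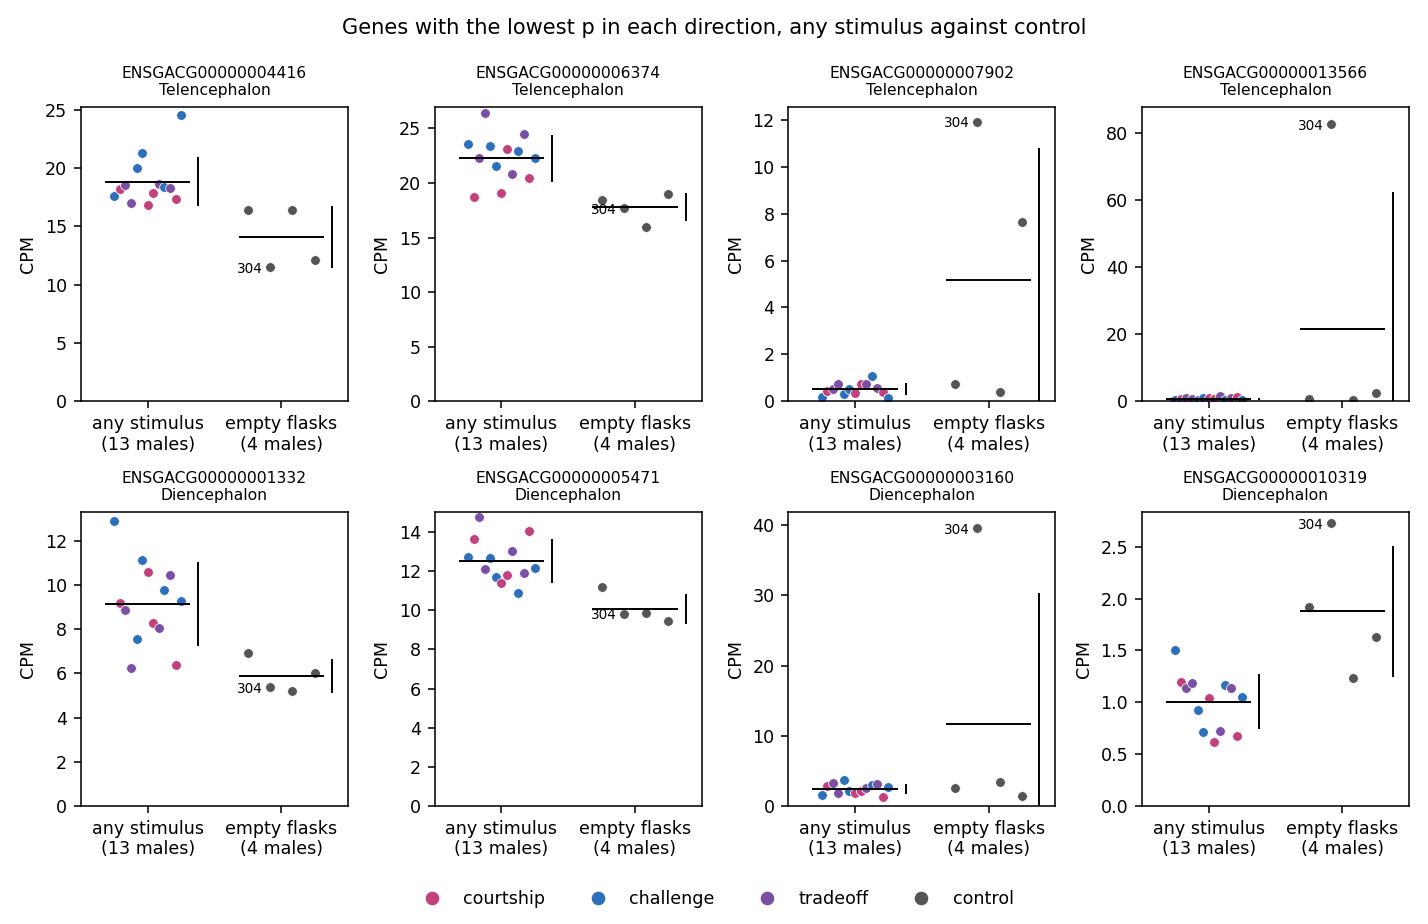
CPM of the genes with the lowest p and a mean of at least 1 CPM, the telencephalon above and the diencephalon below, the first pair of each row higher and the second pair lower in stimulated males; points are males, coloured by treatment, lines group means and bars 1 SD. The higher genes show a shift of most stimulated males, as in ENSGACG00000004416 (all 13 above the controls), while ENSGACG00000013566 and ENSGACG00000003160 differ through control male 304 (82.5 and 39.5 CPM).

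Summing the libraries of a male, so that the male is the replicate, also gave no gene that passed. Of 19136 genes 0 (0%) were called by edgeR, with a lowest adjusted p of 1, and 271 (1.42%) had an unadjusted p under 0.05, 151 higher and 120 lower in stimulated males. DESeq2 called 0, and so did limma voom over all libraries with the male as a random block. ENSGACG00000006374 led the higher genes, with a log2 fold of 0.24 ± 0.07 in the sum, 0.32 ± 0.08 in the telencephalon and 0.16 ± 0.08 in the diencephalon. In the diencephalon it had 17.6, 21 and 25 CPM at the lowest, median and highest of the stimulated males, against 19.9, 19.5, 19.6 and 17.7 CPM in the controls, with 10 stimulated males above the highest control.

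ENSGACG00000004560 followed, with a log2 fold of 0.20 ± 0.06 in the sum and nearly the same fold in the telencephalon (0.19 ± 0.08) as in the diencephalon (0.20 ± 0.07). Its diencephalon level was 28.4, 32.9 and 38.2 CPM at the lowest, median and highest of the stimulated males, against 28.1, 27.6, 28.5 and 29.7 CPM in the controls, and 11 stimulated males lay above the highest control. The lower genes were ENSGACG00000013678, with a log2 fold of -0.23 ± 0.07, and ENSGACG00000013575, with -0.38 ± 0.11 (edgeR, adjusted p = 1 for each). In the telencephalon ENSGACG00000013678 had 8.28, 9.10 and 11.2 CPM in stimulated males, against 9.60, 11.5, 11.7 and 12.4 CPM in the controls, so that 11 of the 13 stimulated males lay below the lowest control. ENSGACG00000013575 was below the lowest control in 8 of the 13 stimulated males, in the telencephalon and also in the diencephalon.

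Males of the same group were about as far apart as males of different groups. The line between stimulated and control males held 4.34% of the summed log2 CPM variance of the telencephalon, against a median of 5.95% over all ways to choose 4 males of 17 (exact permutation test, one-sided, p = 0.979). In the diencephalon it was 4.24%, against a median of 6.03% (exact permutation test, one-sided, p = 0.999). Without male 304 the shares were 4.25% and 4.71%. In the telencephalon the median distance between a stimulated and a control male was 0.665, against 0.659 between stimulated males and 0.726 between controls (root mean square difference of log2 CPM; 52, 78 and 6 pairs). The distances in the diencephalon were smaller, with medians of 0.499 between the groups, 0.507 among stimulated and 0.531 among control males. Male 304 had a median distance of 0.772 to stimulated males in the telencephalon, against 0.647 for the other controls. In the diencephalon male 304 was no farther from stimulated males than the other controls were (0.495 against 0.506). The SD of a gene over males had a median of 0.19 (0.192) log2 units in the stimulated and 0.19 (0.192) in the control telencephalon. In the diencephalon the medians were 0.17 (0.166) in stimulated and 0.16 (0.164) in control males. A median SD from 4 males runs lower than one from 13, so that equal medians do not show equal spread. Without male 304 the control telencephalon had a median SD of 0.16 (0.164), from fewer males still.

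No gene passed a test among the kinds of stimulus. A test of any difference among courtship, challenge and tradeoff called 0 of 18036 genes (0%) in the telencephalon by edgeR, 654 of them (3.63%) having a p under 0.05 before adjustment. For the diencephalon it called 0 of 18248 (0%), with 720 (3.95%) at such a p. The lowest adjusted p over tools was 0.0685, from limma voom in the diencephalon.

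Fold changes of the regions were set side by side, with no test, since both come from the same males. Over the 17959 genes tested in both, Pearson's r of the log2 folds was 0.156 and Spearman's rho 0.137, as a description across genes, which are not independent. The jackknife standard error of r over males was 0.231, larger than r itself. The sign was the same in 54% of all genes, in 61.2% of the 417 on the telencephalon list (unadjusted p under 0.05) and in 63.9% of the 385 on the diencephalon list. A male's 2 libraries deviated together. Over genes, the deviations of a male's telencephalon and diencephalon from their group means correlated with a mean r of 0.387, or 0.41 in stimulated and 0.312 in control males, against a median of -0.0352 for libraries of different males. Of the 17 telencephalon libraries, 15 were most like the diencephalon of their own male; male 304 had the lowest r, 0.108. The r of the fold changes moved with single males, between 0.133 without stimulated male 322 and 0.369 without control male 303, and was 0.224 without male 304.

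An unadjusted p under 0.05 in both regions was reached by 27 genes, 6.48% of the telencephalon list and 7.01% of the diencephalon list. Of the 17959 genes, 16 (0.0891%) were higher and 9 (0.0501%) lower in stimulated males in both, and 2 had opposite signs. One of these was ENSGACG00000015292, with a log2 fold of -0.26 ± 0.11 in the telencephalon and 0.20 ± 0.09 in the diencephalon, where its groups did not overlap. The genes described next were picked after their values were seen, by the lowest value of the larger p of the regions among genes with at least 1 CPM in each. ENSGACG00000016157, an abundant transcript, had 110, 174 and 279 CPM at the lowest, median and highest of the stimulated telencephalon libraries, against 155, 116, 166 and 77.9 CPM in control males 303, 304, 307 and 308. Its diencephalon levels were 88.6, 154 and 218 CPM in stimulated males, against 130, 104, 121 and 74.7 CPM in the controls. In each region 10 of the 13 stimulated males lay above the highest control, and the log2 folds were 0.63 ± 0.25 in the telencephalon and 0.51 ± 0.19 in the diencephalon.

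ENSGACG00000020593 had 19.4, 21.7 and 27.5 CPM in the stimulated telencephalon, against 18.9, 15.3, 15.6 and 23.5 CPM in the controls, and 20.2, 22.5 and 28 against 20.5, 18.1, 19.1 and 22.2 CPM in the diencephalon. Control male 308 was inside the stimulated range in both regions and control male 303 in the diencephalon. The log2 folds were 0.31 ± 0.11 in the telencephalon and 0.25 ± 0.09 in the diencephalon. Of the lower genes, ENSGACG00000008327 averaged 0.901 ± 0.734 CPM in the stimulated and 2.76 ± 1.58 CPM in the control telencephalon, and 1.40 ± 1.03 against 3.18 ± 1.52 CPM in the diencephalon (SD, n = 13 and 4). Its log2 folds were -1.62 ± 0.52 and -1.17 ± 0.46, and in each region challenge male 318 was the highest stimulated male and control male 308 the highest control. The groups overlapped in both regions. ENSGACG00000007106 averaged 6.07 ± 1.12 against 8.07 ± 1.65 CPM in the telencephalon and 7.80 ± 1.19 against 9.67 ± 1.46 CPM in the diencephalon. Among the controls male 304 had its lowest level in each region, 6.13 and 7.52 CPM. Without male 304 ENSGACG00000016157 and ENSGACG00000020593 no longer had an unadjusted p under 0.05 in the telencephalon (log2 folds of 0.59 and 0.24). The adjusted p of each of these genes was at least 0.9999 in edgeR in either region.

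**Figure D3:**
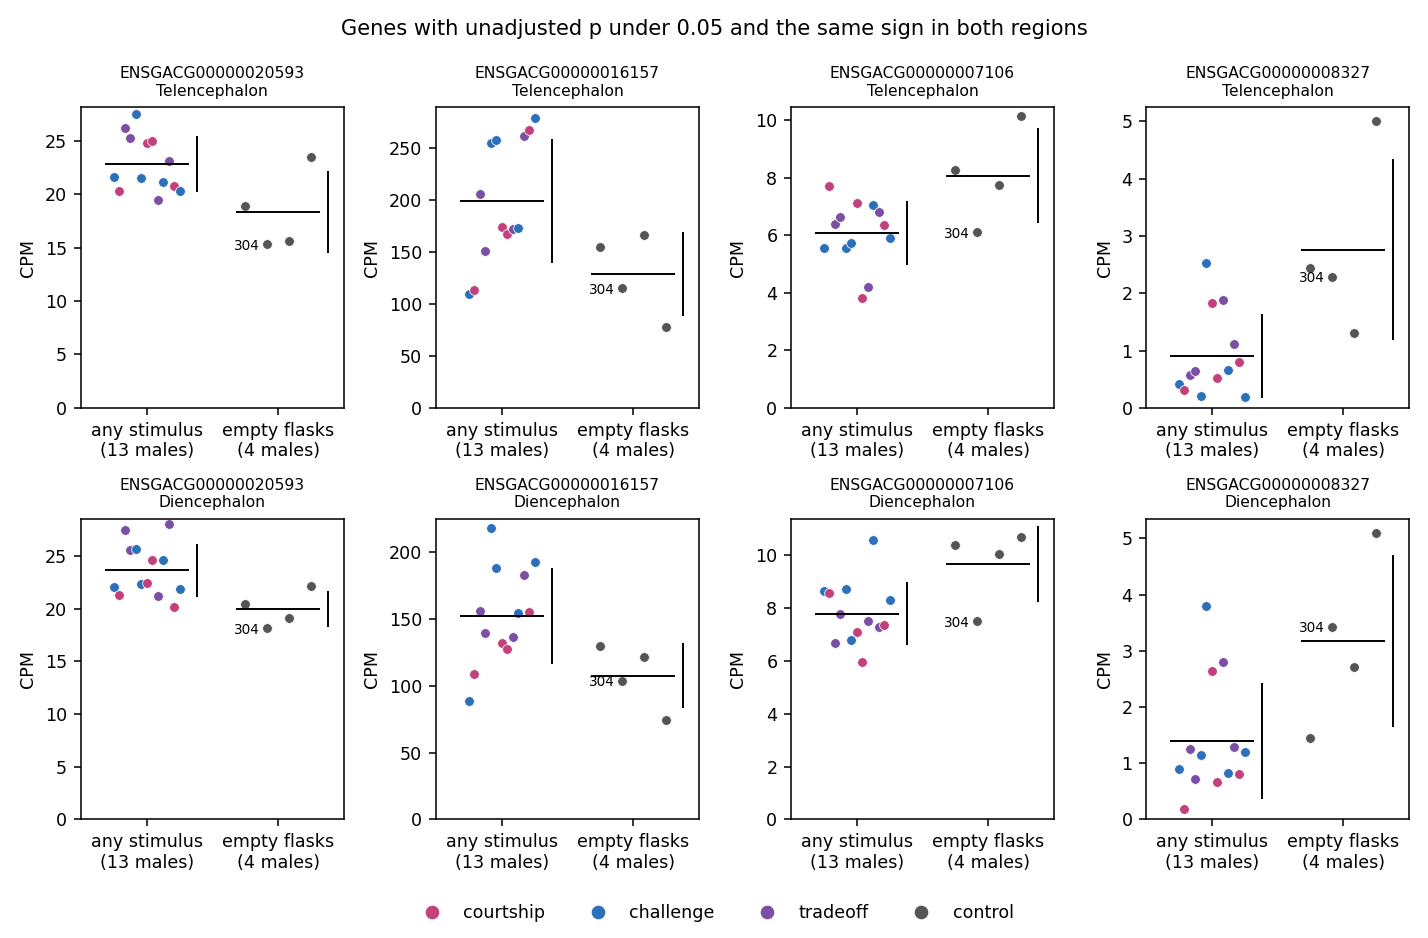
CPM in the telencephalon (above) and the diencephalon (below) of 4 genes with an unadjusted p under 0.05 and the same sign in both regions, in all males, chosen after their values were seen; points are males, coloured by treatment, lines group means and bars 1 SD. The groups overlap in every panel, and ENSGACG00000016157 has 10 of 13 stimulated males above the highest control in each region.

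**Figure D4:**
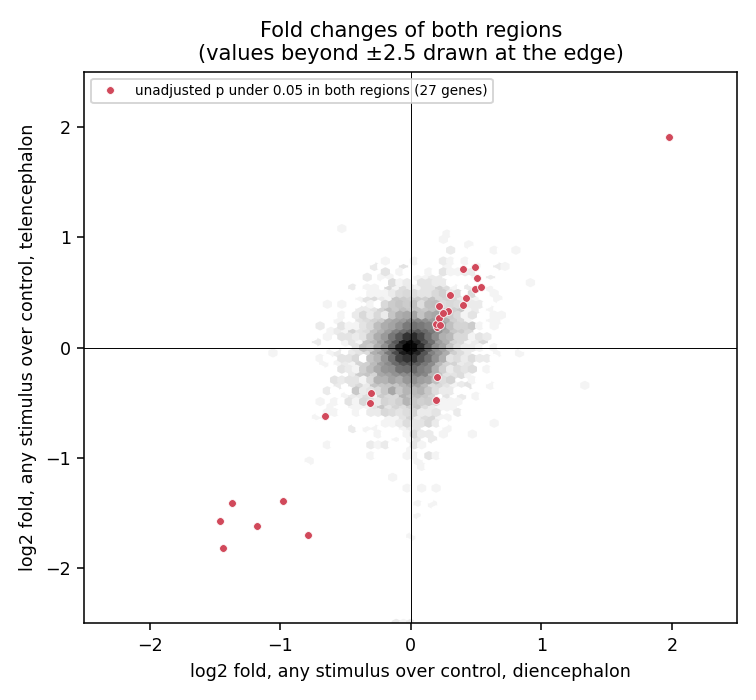
Log2 folds of stimulated over control males in the telencephalon (vertical) against the diencephalon (horizontal) for the 17959 genes tested in both, shaded by density and drawn at the edge beyond 2.5; red points are the 27 genes with an unadjusted p under 0.05 in both. The cloud is nearly round (r = 0.156) and wider along the telencephalon axis, where the SD of the folds was 0.25 against 0.19.

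A response that differs between regions was tested directly, as the telencephalon fold minus the diencephalon fold over all 34 libraries. This test called 16 of 18923 genes (0.0846%) at adjusted p under 0.05 in edgeR, 15 with a negative and 1 with a positive difference, and 378 (2%) had an unadjusted p under 0.05. Of the calls, 15 had male 304 as the highest telencephalon library and a higher median in the diencephalon, and the other was a gene of the telencephalon that male 304 alone showed above 1 CPM in its diencephalon. Without male 304 the test called 0 genes, and with the male as a block, the pairing that the design gives, it also called 0 (664 genes at an unadjusted p under 0.05).

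The fitted differences changed unevenly without male 304. Of the 16, ENSGACG00000013430 kept -3.48 of -4.46, ENSGACG00000017882 -3.14 of -7.61, ENSGACG00000007902 -2.54 of -3.38 and ENSGACG00000016370 1.83 of 4.50, with no call. In others of the 16 the sign turned, to 0.03, 0.24, 0.50, 0.66, 1.73 and 2.48. The remaining differences shrank to between -1.39 and -0.39. In ENSGACG00000013430 the telencephalon of another control male reached 0.443 CPM, against 0.645 CPM in male 304 and at most 0.0429 CPM in stimulated males.

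ENSGACG00000006999 is a call in which male 304 was the single telencephalon library with more than a trace. Its telencephalon level was 0 CPM at the lowest and median and 0.0827 CPM at the highest of the stimulated males, against 0, 11.1, 0 and 0 CPM in control males 303, 304, 307 and 308. A count of 0 allows up to 3 counts, or 0.0873 to 0.138 CPM over the telencephalon libraries, for counting error alone. In the diencephalon every male expressed it, with 14.7, 19.8 and 25.8 CPM in stimulated males against 18.3, 18.8, 21.2 and 20.9 CPM in the controls. The fitted difference was -7.42 ± 1.28 on the log2 scale (edgeR, adjusted p = 0.0146), a size that depends on the prior count since most telencephalon libraries were at 0. That fit did not use the pairing of a male's libraries. With the male as a block the difference was -5.50 (edgeR, adjusted p = 0.9988).

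ENSGACG00000015274 had the same form, with 3.08 CPM in the telencephalon of male 304, 0 in the other controls and at most 0.0414 CPM in stimulated males (difference -6.93 ± 1.16; edgeR, adjusted p = 0.0146). With the male as a block its difference was -5.30 (edgeR, adjusted p = 0.9988). Its diencephalon median was 3.99 CPM in stimulated males. ENSGACG00000007902 and ENSGACG00000013566, described above, were also called, with differences of -3.38 and -4.91. The gene with a positive difference was ENSGACG00000016370 (4.50 ± 0.85; edgeR, adjusted p = 0.0261). It had 2.88, 5.25 and 6.26 CPM at the lowest, median and highest of the stimulated telencephalon libraries, against 4.71, 2.80, 7.06 and 3.37 CPM in the controls. In the diencephalon stimulated males had a median of 0 and at most 0.104 CPM, against 0, 1.21, 0.155 and 0 CPM in the controls, so that again male 304 was apart. The next positive difference, that of ENSGACG00000013917 (2.15 ± 0.50), missed the threshold (edgeR, adjusted p = 0.114); its diencephalon level was 5.61 CPM in male 304, 0.597 to 0.813 CPM in the other controls and at most 0.812 CPM in stimulated males.

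**Figure D5:**
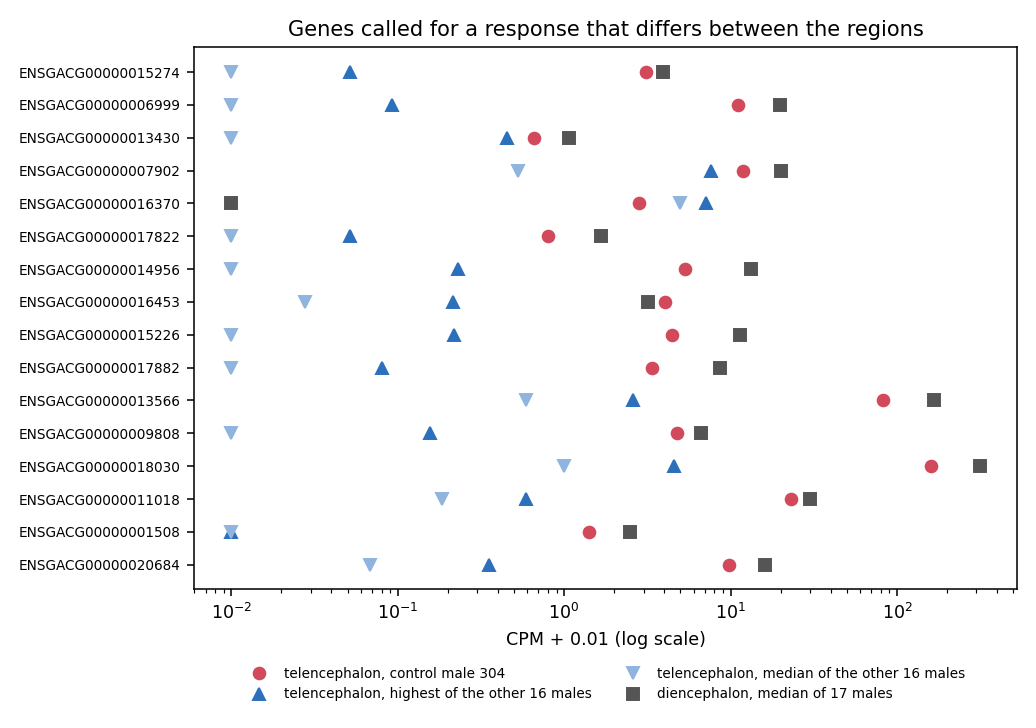
CPM plus 0.01, on a log axis, of the 16 genes called for a response that differs between regions; red circles are the telencephalon of control male 304, dark blue triangles the highest and light blue triangles the median of the other 16 telencephalon libraries, and grey squares the median diencephalon library. In 15 of the 16 the red circle lies to the right of both triangles, near the grey square.

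Fitted folds beyond 1 log2 unit were counted among genes that averaged 1 CPM or more. They were found in 19 higher and 58 lower of 16437 genes in the telencephalon, with no test passed. In the diencephalon 28 of 17014 genes were higher and 11 lower by that much, again with no test passed. Without male 304, which leaves fewer controls, the counts by the same rule were 53 higher and 28 lower in the telencephalon. The side with more genes there thus depended on this male, and the direction was not tested. In the diencephalon the counts without male 304 were 42 higher and 15 lower, and 0 genes were called in either region. Of the chrY models, from the chromosome that male sticklebacks alone carry, 0 were called in either region. In the telencephalon 2 of 444 tested were higher and 6 lower at an unadjusted p under 0.05 (1.8%, against 2.32% of all genes, with a median log2 fold of -0.02). In the diencephalon 3 of 440 were higher and 1 lower (0.909%, against 2.17%, with a median of 0.01). These shares rest on few models, and their distance from the shares of all genes was not tested. Where a chrY model has a close copy elsewhere in the genome, the counting may have divided or discarded its reads, so that its level is uncertain.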

How the data were processed

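RNA of the telencephalon and diencephalon of 17 males was sequenced from stranded mRNA libraries, per the labels' protocols. The submitters' processing notes name STAR and HTSeq; what versions, build, annotation and strand option were used is not given in the sources used here. Overlapping and antisense genes are therefore uncertain. The authors deposited raw counts of reads for each gene model, unnormalized and without molecular identifiers. Amplification noise therefore cannot be told apart from the spread between males, which the intervals cover along with counting error. The 5 summary rows of each file name no gene and stayed out of library sizes and tests. Reads in no feature made 38.6% ± 1.15 of all rows in stimulated and 38.3% ± 0.6 in control telencephalon, and 35.3% ± 1.16 and 35.4% ± 1.00 in stimulated and control diencephalon (SD, n = 13 and 4). Not-unique alignments made 19% in stimulated and 20.2% in control telencephalon, and 4.15% in stimulated and 3.96% in control diencephalon.

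Stimulated and control males were compared in edgeR 4.0.16 (R 4.3.3) with TMM factors, filterByExpr on the pooled groups and robust quasi-likelihood F tests. P-values were adjusted by Benjamini-Hochberg over every gene tested in a comparison, with a threshold of 0.05. Each region was fitted apart on its 17 libraries, the regions were also summed per male, and the difference of the response was a contrast over 34 libraries. Standard errors were the log2 fold divided by the square root of F. Printed CPM values use TMM factors of all 34 libraries. Single values were tested by exact permutation over all choices of 4 males. Alternatives were size factors of DESeq2's kind, DESeq2 1.42.0, limma voom (limma 3.58.1), other low-count filters, the mean of the 3 stimulus groups, the region position as a covariate, all libraries in a fit, each male left out, and 4 males (298, 304, 308 and 321) left out that an earlier analysis had found apart. The comparison among the stimuli and the block without male 304 were added after seeing the data. The script was tested on simulated data.

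The members and the gene lists were chosen with earlier results of these data known. Of 22295 identifiers 0 were found in the reference table (52177 genes, assembly fGasAcu3.hap1.1). Lists of immediate early, social peptide, steroid, monoamine and cell type marker genes, which need symbols, were therefore not tested. Genes that averaged 1 CPM or more are named instead by the 2 lowest p in each direction of a comparison, plus the genes the text says were picked after their values were seen. The identifiers are 20747 Ensembl genes, 657 chrY models, 833 other models and 58 alternatives on unplaced sequence.

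Male numbers pair the libraries, since both regions came from each male: deviations from the group means correlated with a mean r of 0.387 within a male (0.108 to 0.5 over 17 males). Library pairs of a group (168) differed by a chi-square of 10.7 to 98.1 per degree of freedom, so that none agreed within sampling noise and each was counted as 1 replicate.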

Additional observations from a re-analysis of the deposited data

Results flagged for a closer look

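Over the 18 library measures and the named genes, 78 sets of 4 control libraries were searched for a library far from the other 3, and 8 were found. The rule flags about 1 in 20 sets of unselected, normally spread values. That rate does not apply to genes named from these same libraries. Control male 304 was the library in 7 of the 8. In its telencephalon ENSGACG00000013566 had 82.5 CPM, against 0.424 to 2.59 CPM in the other controls; ENSGACG00000006999 had 11.1 CPM and ENSGACG00000015274 3.08 CPM, both against 0 in the others; and ENSGACG00000002649 had 6.13 CPM, against 3.39 to 3.78. In its diencephalon ENSGACG00000003160 had 39.5 CPM, against 1.41 to 3.37 CPM in the other controls, ENSGACG00000013917 had 5.61, against 0.597 to 0.813, and ENSGACG00000016370 had 1.21, against 0 to 0.155. The remaining library was the telencephalon of control male 307, where ENSGACG00000008868 had 0.318 CPM, against 0.831 to 0.919 CPM. Most of these genes had been named for a low p in a comparison that includes these same libraries.

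The interaction test in edgeR, over 34 libraries without the male as a block, called 16 genes for a response that differs between the regions; with the male as a block it called 0. The differences of those named, telencephalon minus diencephalon on the log2 scale, were -7.42 for ENSGACG00000006999, -6.93 for ENSGACG00000015274, -4.91 for ENSGACG00000013566, -3.38 for ENSGACG00000007902 and 4.50 for ENSGACG00000016370. Without control male 304, 0 of the 16 were called. Some fitted differences stayed large, among them -2.54 for ENSGACG00000007902 and 1.83 for ENSGACG00000016370, while others shrank or turned sign.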

How the results depend on the processing

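The count of 0 genes held in the summed libraries under all 25 alternatives, in the diencephalon under 25 of 26 and in the telencephalon under 22 of 26. In the telencephalon DESeq2 called 1 gene (ENSGACG00000007902), the fit of all 34 libraries 47, and leaving out a male 0 to 5, with 5 without control male 303 and 5 without control male 307. Male 304 was the highest library in 46 of the 47, in 4 and 5 of the 5, and in the 1. In the diencephalon the fit of all 34 libraries called 3 (ENSGACG00000003160, ENSGACG00000006863 and ENSGACG00000016370), each highest in male 304. Unadjusted counts ran over all alternatives between 324 and 806 in the telencephalon and between 247 and 774 in the diencephalon.

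The difference between regions changed most. Its 16 calls became 0 with the replicate block, 0 with the replicate block and no male 304, 0 in limma voom, 0 for the mean of the 3 stimulus groups, 0 without the 4 males, and 0 to 30 with a male left out, 0 without male 304 and 30 without control male 307. Leaving out a stimulated male gave 4 to 8. DESeq2 called 15, of which 11 were shared. It gave no p to ENSGACG00000015274 and ENSGACG00000006999, so that their absence from its calls is not a failed test. For the summed libraries the replicate block, as a random effect in limma voom with a consensus correlation of 0.356, gave 0 calls, as without it; no block applies within a region, where each male has a single library. The sign turned in 8 of 903 alternatives for named genes. These were ENSGACG00000013566 in the telencephalon (0.52 without the 4 males), ENSGACG00000003160 in the diencephalon (-2.61 to 0.0019 with a male left out, the highest being without male 304), and 2 differences between regions without male 304, without the 4 males, and with the block and no male 304: ENSGACG00000015274 (0.50, 0.30 and 0.51) and ENSGACG00000006999 (1.73, 1.91 and 1.74). With each male left out in turn ENSGACG00000015274 ran between -7.59 and 0.50 and ENSGACG00000006999 between -7.99 and 1.73. With the region position as a covariate ENSGACG00000013566 had -1.20 and ENSGACG00000003160 -0.71. The position comes from the same expression values, so that smaller folds were built in, and the cause was not tested further.

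With 4 controls a single male weighs heavily, and shifts under 1.5-fold lie inside the interval of many genes. Genes of few counts are limited by depth.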
